A study of Mus musculus with 6 samples.

Results

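The 290 regions described here are all the regions on mouse chromosome 19 in the authors' deposited table of regions whose DNA methylation differed between normal livers and liver tumors, out of 14176 regions in all. They were chosen by their chromosome alone, from a table that the authors had already selected on the measured difference, so that every region listed differed by at least 20 percentage points, in either direction. The chromosome was taken up because its share of gains was already known to be high, so its direction is a description and was not tested.

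Reduced representation bisulfite sequencing (RRBS) had been applied to 3 normal livers and 3 macroscopic liver tumors of male C3H/HeN mice of 74 weeks, an inbred strain prone to liver tumors in old males. Each tumor was of the kind with mutated Ha-ras, a proto-oncogene. The animals were F2 offspring from the control arm of an arsenic project, kept on a standard diet and tap water. RRBS sequences fragments cut by the enzyme MspI, and the region table gives 1 pooled difference per region, tumor minus normal, in percentage points. It carries no value per animal, so no spread between animals can be given for any value. A positive difference is called a gain (hypermethylated in tumors), and a negative one a loss (hypomethylated). The tissues were whole pieces of liver or tumor, so a changed mix of cell types and a changed methylation within cells cannot be told apart.

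Methylation of cytosine at CpG sites is kept through cell division and is usually low at active promoters and high elsewhere in the genome. Tumors commonly lose methylation over long gene-poor stretches and gain it at some CpG islands, the CpG-rich stretches at many promoters. Mouse chromosome 19 is the smallest autosome and is rich in genes. It carries the Cyp2c family of liver cytochrome P450 enzymes, enzymes of fatty acid and sulfate metabolism, a large cluster of olfactory receptor genes, and components of the Wnt and Hedgehog pathways.

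The sequences below show the regions on which the results turn, read from the plus strand of the reference genome GRCm38 (mm10), with CpG dinucleotides in capitals. The reference is from the C57BL/6J strain, and differences of C3H/HeN from it were not examined. The first set is from introns of Sh3pxd2a, the gene with most gains on the chromosome. The second set holds regions listed for Cyp2c genes.
Sh3pxd2a intron, first, chr19:47301780-47301894, plus strand: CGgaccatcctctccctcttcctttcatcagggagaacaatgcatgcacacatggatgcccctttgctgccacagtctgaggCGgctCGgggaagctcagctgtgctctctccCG
Sh3pxd2a intron, second, chr19:47338611-47338816, plus strand: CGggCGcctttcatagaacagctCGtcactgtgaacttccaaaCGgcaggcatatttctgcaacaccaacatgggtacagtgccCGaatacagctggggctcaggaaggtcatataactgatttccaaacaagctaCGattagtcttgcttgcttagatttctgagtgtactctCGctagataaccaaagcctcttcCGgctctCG
Sh3pxd2a intron, next, chr19:47413016-47413101, plus strand: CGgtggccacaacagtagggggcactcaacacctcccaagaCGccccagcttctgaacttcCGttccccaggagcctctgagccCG
upstream of Cyp2c55, chr19:38989472-38989531, plus strand: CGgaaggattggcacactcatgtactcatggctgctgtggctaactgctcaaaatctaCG
upstream of Cyp2c70, chr19:40191154-40191202, plus strand: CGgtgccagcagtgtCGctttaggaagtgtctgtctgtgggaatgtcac

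The next set shows regions with large gains at which every measured cytosine was a differentially methylated cytosine (DMC), a cytosine that itself passed the authors' test. Here and below, a region is placed in a coding exon if any of its bases overlaps coding sequence. Part of such a region, with some of its CpG sites, can lie in an intron.
downstream of Nolc1, chr19:46090214-46090442, plus strand: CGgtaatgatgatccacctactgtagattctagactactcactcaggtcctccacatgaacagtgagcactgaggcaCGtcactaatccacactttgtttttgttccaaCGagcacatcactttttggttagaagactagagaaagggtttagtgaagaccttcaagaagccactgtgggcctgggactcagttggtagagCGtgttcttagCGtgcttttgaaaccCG
Papss2 intron, chr19:32651190-32651413, plus strand: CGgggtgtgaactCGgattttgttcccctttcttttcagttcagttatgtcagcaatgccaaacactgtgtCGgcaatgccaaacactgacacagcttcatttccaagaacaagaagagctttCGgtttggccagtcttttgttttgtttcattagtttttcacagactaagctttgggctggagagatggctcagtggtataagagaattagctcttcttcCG
Pde6c exon, chr19:38162157-38162302, plus strand: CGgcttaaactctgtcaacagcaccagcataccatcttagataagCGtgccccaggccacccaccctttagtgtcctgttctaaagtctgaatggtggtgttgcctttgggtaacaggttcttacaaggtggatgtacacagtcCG

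The last set shows large losses, with 3 regions that overlap coding exons of Rasgrp2. It also shows the largest loss of the chromosome, in an intron of Sufu, and regions in Ablim1 and Scd1.
Rasgrp2 exon, first, chr19:6403037-6403191, plus strand: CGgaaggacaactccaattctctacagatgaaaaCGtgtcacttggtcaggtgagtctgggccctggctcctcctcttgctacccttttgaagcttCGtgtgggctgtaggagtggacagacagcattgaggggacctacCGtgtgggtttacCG
Rasgrp2 exon, second, chr19:6407095-6407210, plus strand: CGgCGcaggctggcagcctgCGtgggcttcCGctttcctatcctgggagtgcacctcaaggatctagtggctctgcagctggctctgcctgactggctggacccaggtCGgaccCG
Rasgrp2 exon, next, chr19:6408848-6408974, plus strand: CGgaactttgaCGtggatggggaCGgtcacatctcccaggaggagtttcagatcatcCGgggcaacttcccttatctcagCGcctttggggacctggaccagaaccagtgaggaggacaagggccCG
Sufu intron, chr19:46483263-46483315, plus strand: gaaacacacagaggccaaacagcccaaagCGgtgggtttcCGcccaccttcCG
Ablim1 intron, chr19:57201191-57201284, plus strand: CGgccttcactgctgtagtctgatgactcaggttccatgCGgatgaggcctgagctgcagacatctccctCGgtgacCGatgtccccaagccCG
Scd1 exon, chr19:44400098-44400329, plus strand: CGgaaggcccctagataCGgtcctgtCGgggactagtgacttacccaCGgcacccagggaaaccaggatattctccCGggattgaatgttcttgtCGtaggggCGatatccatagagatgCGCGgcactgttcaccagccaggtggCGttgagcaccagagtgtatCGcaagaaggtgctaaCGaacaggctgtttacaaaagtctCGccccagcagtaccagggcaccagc

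Most of these sequences begin with CGG, as left by MspI, and hold few CpG sites between long stretches without any. Of the 290 regions, 268 (92.4%) began with CGG or ended with CCG, so that their borders mostly followed the cut sites of the assay. Cytosines of both strands were counted apart, and 190 regions had more measured cytosines than the reference has CpG dinucleotides. In 35 regions the cytosines came from at most 2 dinucleotides. The region listed for Cyp2c55 is of this kind, while both regions listed for Cyp2c70 hold 3 dinucleotides, the last of them cut by the region's end. Each of the 3 had 3 measured cytosines.

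Losses outnumbered gains on chromosome 19, but by less than on the other autosomes. Of the 290 regions, 73 were gains and 217 were losses, a gain share of 25.2% (exact 95% Clopper-Pearson interval 20.3 to 30.6%, counting error over regions only). Among all regions of the genome in the table, 14.9% were gains. On the other 18 autosomes the share was 15% (2024 of 13450 regions, 14.4 to 15.7%), and on the sex chromosomes it was 4.59%. A difference of at least 30 points, the size the authors required of a differentially methylated region (DMR), was reached by 70 of the 290 regions (24.1%), beside 23.5% over the whole table. Among those 70 regions, 33 were gains and 37 were losses, so that gains made up 47.1%, beside 23.9% of the 3145 such regions on the other autosomes. Large differences were thus about as frequent on chromosome 19 as in the whole table, and they were more evenly divided between gain and loss.

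The gains had a median difference of 28.6 points and the losses one of -24.8 points, and the whole set ran from -57.3 points (Sufu intron, nearest to Trim8) to 53.4 points (downstream of Nolc1). The regions closest to the 20-point minimum were a loss of -20.0001 points near Gm7102 and a gain of 20.02 points, and none is listed beyond the minimum. Together the regions spanned 63.3 kb, with a median of 174.5 bp, and held 2220 measured cytosines, of which 1220 (55.0%) were DMCs. Gains were the more densely measured: they had a median of 7 measured cytosines and of 5.0 measured cytosines per 100 bp, against 4 and 3.28 in losses. GC content over the region and its flanks had a median of 50.2% at gains and 47.6% at losses. In 57 regions (19.7%) a single cytosine was a DMC, and 50 of those 57 were losses. The other autosomes had 2220 such regions (16.5%), and there too most, 1983, were losses.

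Gains did not come mainly from the closest surroundings of promoters. Within 2 kb of a transcription start site (TSS), 7 of 24 regions were gains (29.2%), beside 33.5% on the other autosomes. Between 2 and 5 kb the share was 13 of 29 (44.8%), beside 27.7%, and between 5 and 20 kb it was 18 of 64 (28.1%), beside 23.4%. Between 20 and 100 kb it was 31 of 119 (26.1%), beside 15.2%, and beyond 100 kb it was 4 of 54 (7.41%), beside 3.69%. The share on chromosome 19 was higher in each class but the nearest, and the exact intervals of the 2 sets were apart from each other only at 20 to 100 kb. Most regions inside Sh3pxd2a, all of them gains, fell in that class. Whether the intervals stay apart without that gene was not tested.

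**Figure D1:**
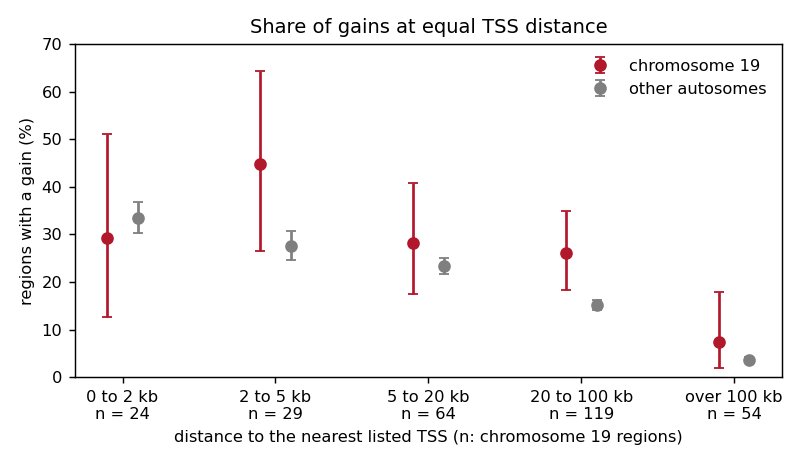
Share of regions with a gain of methylation in tumors (percent, vertical axis) by distance to the nearest listed TSS (horizontal axis), for chromosome 19 in red and the other 18 autosomes in grey; bars are exact 95% intervals over regions. On chromosome 19 the share was 29.2% within 2 kb, highest at 2 to 5 kb (44.8%) and lowest beyond 100 kb (7.41%), while on the other autosomes it was highest within 2 kb (33.5%).

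With the distance mix of chromosome 19, the other autosomes would have had 17.6% gains. Chromosome 19 lay 7.55 points above that, the highest of the 19 autosomes when each was set against the rest in the same way. Chromosome 8 followed with 5.01 points and chromosome 12 with 4.01 points, and the lowest was chromosome 7 with -4.40 points. Without the 5 Mb window that holds Sh3pxd2a the difference was 4.66 points, below chromosome 8. The sign of the difference also turned with the size of change required: it was 17.3 points among regions of at least 30 points, but -5.70 points among the 23 regions of at least 40 points and -9.04 points among the 7 of at least 50. By size class, the gap to the other autosomes was widest at 30 to 40 points, where 23 of 47 regions were gains (48.9%), beside 17.9%.

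A high share of gains can go with many gains or with few losses, so the listed regions were set against the MspI fragments of 40 to 300 bp predicted from the reference, a comparison added after the data were seen. Chromosome 19 had 11287 such fragments. It had 6.47 gains per 1000 fragments, inside the range of the other autosomes (3.17 on chromosome 3 to 7.14 on chromosome 8). It had 19.2 losses per 1000 fragments, fewer than any other autosome (25.3 on chromosome 10 to 35.7 on chromosome 5). For regions of at least 30 points the rates were 2.92 gains per 1000 fragments, above the other autosomes (1.19 to 2.52), and 3.28 losses, below them (5.08 to 8.002). With fragments and regions divided by distance to annotated starts, losses were at 0.727 times, and gains at 1.14 times, the number that the rates of the other autosomes would give. The scarcity of losses was seen in every distance class, from 5.59 losses per 1000 fragments within 2 kb, beside 6.64 elsewhere, to 37.0 beyond 100 kb, beside 51.1. Gains were more frequent than elsewhere at 2 to 5 kb (14.99 against 10.3 per 1000), at 20 to 100 kb (9.59 against 6.18) and beyond 100 kb (3.36 against 1.76), and less frequent within 2 kb (2.52 against 3.29) and at 5 to 20 kb (6.84 against 8.65). How many of the predicted fragments had been read deeply enough on each chromosome is not known here, and its part in these rates was not tested.

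**Figure D2:**
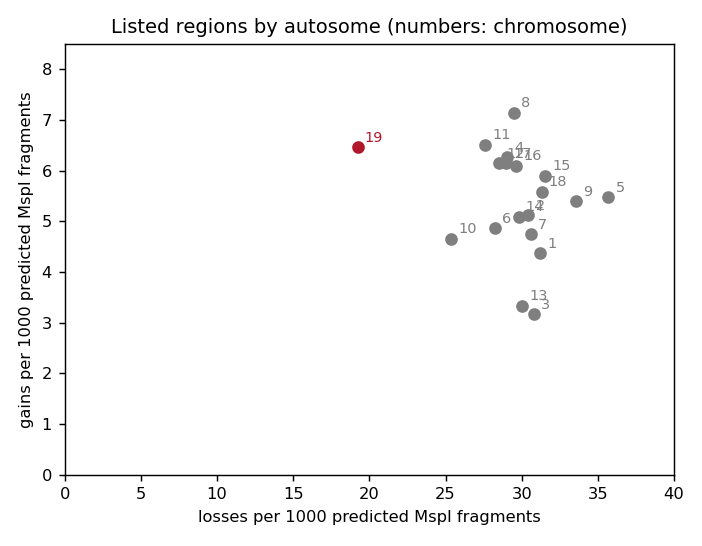
Gains (vertical axis) against losses (horizontal axis) per 1000 predicted MspI fragments, 1 point per autosome, labelled with its number. Chromosome 19, in red, lies at 6.47 gains, among the other autosomes, and at 19.2 losses, to the left of all of them.

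The share of gains fell from CpG islands to shores to other sequence, on chromosome 19 as on the other autosomes. In CpG islands, defined from the sequence, 14 of 27 regions were gains (51.9%, beside 36.6% on the other autosomes), in the shores within 2000 bp 25 of 62 (40.3%, beside 19.9%), and elsewhere 34 of 201 (16.9%, beside 11.4%). Introns held 138 regions with 41 gains (29.7%, beside 18.1%), and intergenic sequence 87 regions with 9 gains (10.3%, beside 7.17%). In coding exons the shares were alike, with 15 of 46 on chromosome 19 (32.6%) and 32.8% elsewhere. Of the 41 regions that were at least 50% repeat-masked, 3 were gains (7.32%, beside 3.14% on the other autosomes). With distance, annotation and island classes all matched, an alternative chosen after seeing the data, the difference from the other autosomes was 6.33 points.

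The regions with the most measured cytosines were mostly gains. Of the 14 regions with at least 20 cytosines, 10 were gains (71.4%), beside 55.2% of such regions on the other autosomes. A region over the TSS of Gna14, a G protein alpha subunit, gained 21.6 points with 34 of 102 cytosines called. Smarca2, an ATPase of the SWI/SNF chromatin remodelling complex, gained 47.5 points in a coding exon in a CpG island, with 34 of 38 cytosines called. A region in Habp2, a serine protease secreted by the liver, gained 31.2 points with 26 of 40 cytosines called. It also overlapped the gene Nrap, and which of the 2 genes owns the coding exon it met was not examined. The exceptions were losses at Nudt22 (-24.2 points), Sfxn3 (-23.2 points), upstream of Dusp5 (-38.5 points) and in Hspa12a (-21.8 points).

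Along the chromosome, gains were unevenly placed. In 13 consecutive windows of 5 Mb (the last one cut short by the chromosome's end), none with at least 10 regions had more gains than losses. The first window, next to the centromere, came closest with 7 gains and 7 losses. Window 10, which holds Sh3pxd2a, had the most gains, with 18 of 42 regions (42.9%) and 12.5 gains per 1000 predicted fragments. Window 12, with Tcf7l2, Vti1a and Habp2, had 11 of 35, and window 9, between Cyp2c70 and Scd1, had 10 of 40. At the other end, window 5 held 1 gain and 23 losses, and window 11, in which 60.0% of regions lay beyond 100 kb of a TSS, held 3 gains and 22 losses. Losses per 1000 fragments ranged from 9.37 in window 8 to 36.5 in window 11 among windows of at least 10 regions. Windows 4, 5 and 11, the windows with most losses per fragment, were among those with the fewest protein-coding starts (16, 27 and 14). Not all windows with few starts were like them. Window 6, with 30 starts, had 12.7 losses per 1000 fragments, and window 13, with 12 starts, had 5.13 from 1 region.

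**Figure D3:**
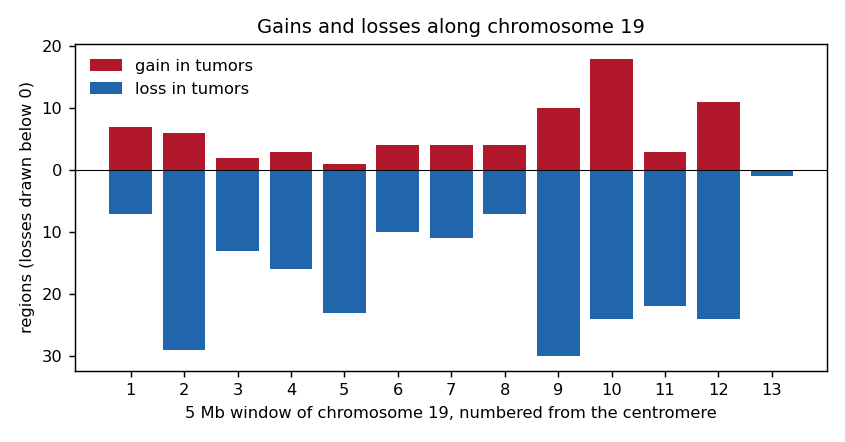
Number of regions with a gain (red, upward) and with a loss (blue, downward) in each 5 Mb window of chromosome 19, numbered from the centromere (horizontal axis). Window 10 has the most gains (18), window 9 the most losses (30), and window 5 has 1 gain beside 23 losses.

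In the order of the chromosome, gains and losses alternated in long stretches of losses and mostly short stretches of gains. The gains formed 35 runs, of which 18 were single regions, and the losses 36 runs, of which 12 were single. The longest run of gains had 11 regions over 672 kb (chr19:46764532-47436952), 2 in Cnnm2 and 9 in Sh3pxd2a. The longest run of losses had 29 regions over 5.16 Mb (chr19:47659769-52815170), from Col17a1 through Cfap58, Sorcs3 and Sorcs1 to the gene desert around Ins1 and AA387883. It followed directly on the run of gains in Sh3pxd2a. A run of 25 losses over 2.42 Mb (chr19:23399339-25819346) covered Ptar1, Apba1, Pip5k1b, Dock8 and Kank1, and a run of 20 losses over 582 kb (chr19:6271024-6852559) covered Rasgrp2, Nrxn2 and Slc22a12.

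Close neighbours mostly shared their direction. Of 30 adjacent pairs with a gap of at most 10 kb, 26 moved the same way, 4 as gains and 22 as losses (86.7%, beside 92.0% on the other autosomes). Mixed pairs lay at Suv420h1, a histone H4 methyltransferase gene, with 40.5 and -21.1 points, and at Opalin, an oligodendrocyte gene, with -25.7 and 23.1 points. The others lay in Vti1a, which encodes a SNARE of vesicle fusion, with 43.5 and -24.9 points, and in Tcf7l2, with 34.0 and -27.4 points.

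Sh3pxd2a encodes Tks5, a scaffold of the actin-rich protrusions with which cells degrade matrix. Its gene body (chr19:47260174-47464612, 204 kb, minus strand) held 9 regions, and all 9 were gains, with a median of 33.2 points. Together they held 124 cytosines, of which 95 were DMCs, and they made up 12.3% of the gains of the chromosome. From the 5′ end of the gene, the introns gained 20.8 points at 28.5 kb, 34.6 points at 51.6 kb, 25.2 points at 54.8 kb and 27.9 points at 97.4 kb. Farther in, an intron gained 50.3 points at 126 kb, with 13 of 15 cytosines called, and another 24.3 points at 141 kb. The largest gain of the gene, 52.1 points, lay 151 kb in, in a coding exon within a CpG island, with 54 of 62 cytosines called. Beyond it an intron gained 33.2 points and the 3′ untranslated region 38.1 points. Gains were thus spread over most of the gene body, none lay at the annotated 5′ end, and both gains over 50 points lay more than 100 kb in.

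For 6 of the 9 regions the nearest listed TSS was that of Mir6995, a microRNA gene near the 3′ end, so a reading by nearest TSS alone puts them with the microRNA. The gene held 116 predicted fragments, 56.7 per 100 kb, against 18.4 per 100 kb over the chromosome, so predicted fragments were dense there. How many of them were read deeply enough is not known here. Leaving out its regions, a choice made after the data were seen, lowered the share of gains from 25.2 to 22.8% and the difference at equal distance from 7.55 to 5.10 points.

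**Figure D4:**
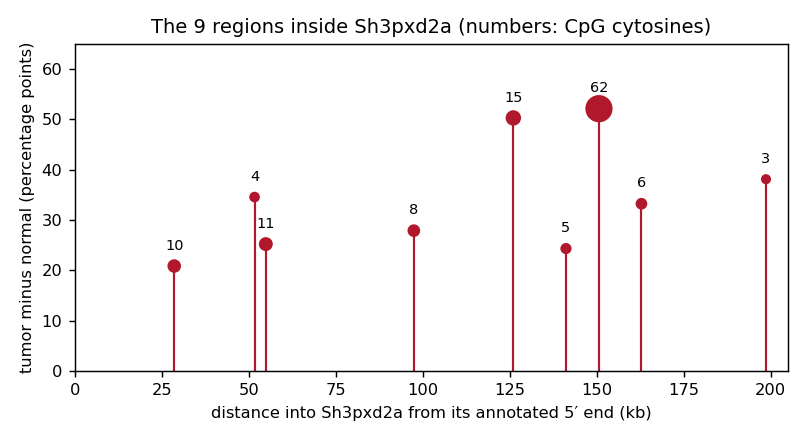
Difference in methylation, tumor minus normal, in percentage points (vertical axis) for the 9 regions inside Sh3pxd2a, by distance from its annotated 5′ end in kb (horizontal axis); the size of a point and the number above it give the measured cytosines. All 9 regions are gains, from 20.8 to 52.1 points, and the region with 62 cytosines is the highest.

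The Cyp2c genes encode P450 enzymes of the liver that oxidise drugs, steroids and fatty acids, and Cyp2c70 makes muricholic bile acids in mice. All 3 regions listed for them were gains, beside 25.2% of all 290 regions. The region listed for Cyp2c55 gained 27.0 points 17488 bp upstream of its TSS, with 1 of 3 cytosines called a DMC. The regions listed for Cyp2c70 gained 36.2 points at 3868 bp upstream and 28.6 points at 41177 bp upstream, each with 2 of 3 cytosines called. None of the 3 lay in a Cyp2c gene that is annotated as functional. They lay inside the pseudogene Cyp2c52-ps, inside Gm5827 and in an intron of Pdlim1, an actin-linked PDZ-LIM protein gene. Whether the regions in Cyp2c52-ps and Gm5827 lie in an exon or an intron is not settled here. Within the cluster itself (chr19:39006940-40187286, 14 genes over 1180 kb) no region was listed, although the reference predicts 155 MspI fragments there. The gains thus lay on both flanks of the cluster, and the table gives no difference of 20 points or more inside it. Of the 17 Cyp2c names in the list, 15 were the nearest gene of no region.

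Other enzymes of drug, steroid and retinoid metabolism had 2 gains and 2 losses, beside 25.2% gains over all 290 regions. Papss2, which makes the sulfate donor for sulfation reactions, gained 45.8 points in an intron, at all 6 cytosines. Cyp26a1, which degrades retinoic acid, gained 30.7 points in a coding exon 2997 bp downstream of its TSS, with 8 of 11 cytosines called. Losses of -20.6 points lay in a coding exon of Cyp17a1, a steroid hydroxylase, and of -26.6 points upstream of Aldh1a7, inside Tmc1.

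Genes of lipid and intermediary metabolism had 6 gains and 9 losses (40% gains, beside 25.2% over all 290 regions). Their median was -25.3 points, beside -23.0 points over all 290 regions. Counted by the gene overlapped, there were 6 gains and 8 losses (42.9% gains), with a median of -23.0 points. Scd1, the liver desaturase that makes oleate, had a loss of -35.2 points in a coding exon, with 13 of 17 cytosines called. Its neighbour Scd2, of the same family, carried a loss of -43.3 points in a coding exon. The table lists that region under Mir5114, so it is counted only by the gene overlapped. Elovl3, which elongates very long chain fatty acids, is not in this list and is in neither count. It instead gained 38.4 points in a coding exon 1989 bp downstream of its TSS, with 16 of 18 cytosines called. The desaturase pair and the elongase thus differed in direction although all lie within windows 9 and 10.

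Pcx, pyruvate carboxylase, gained 49.5 points in an intron, at 3 of 3 cytosines, in a region of 18 bp. The table lists that region under Lrfn4, so it is counted only by the gene overlapped. Gldc, the glycine decarboxylase of the glycine cleavage system, gained 29.1 points in an intronic CpG island. Losses lay in introns of Got1, the cytosolic aspartate aminotransferase (-27.3 points), and of Pank1, a kinase of coenzyme A synthesis (-25.3 points). A region listed for Lipo1 gained 28.6 points in an untranslated exon that the annotation gives to Lipo3, so its gene name is uncertain. Farther on, regions listed for Lipo1 and Lipf were losses of -31.3, -41.1 and -30.2 points.

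Transporter genes had 1 gain and 12 losses (7.69% gains, beside 25.2% over all 290 regions). The gain, 21.3 points, lay 2454 bp upstream of Abcc2, the pump for conjugated organic anions into bile, with 1 of 4 cytosines called. Slc22a12, known as a urate transporter of the kidney, was the nearest gene of 10 losses over 196 kb, from -20.5 to -29.2 points. A single one of them lay inside Slc22a12, in a coding exon (-23.6 points), and 7 were intergenic, so the count belongs to the stretch and not to the gene. Slc29a2, a nucleoside transporter, had losses of -32.0 and -20.04 points.

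Genes of transcription and development had 10 gains and 11 losses (47.6% gains, beside 25.2% over all 290 regions). By the gene overlapped they had 10 gains and 8 losses. Smarca2 had 3 gains, of which the smallest, 21.3 points, lay 440034 bp from the TSS. Ldb1, a cofactor of LIM-domain proteins, gained 29.9 points 1638 bp downstream of its TSS, and Mxi1, an antagonist of Myc, gained 28.1 points in an intron. Klf9, a Krüppel-like factor, gained 33.8 points in a coding exon within a CpG island. The table lists that region under Mir1192, so it is not in the count by nearest TSS. Losses lay near Pax2 (-28.2 points), Tlx1 (-26.5 and -20.6 points), Rfx3 (-26.2 points) and Vax1 (-22.4 points), none of these in the gene itself. Inside Pax2, a developmental transcription factor gene, lay 2 more losses, of -23.4 points in a coding exon and -22.6 points in an intron. The table lists them under Mir6405, so they too are outside the count by nearest TSS. Rorb, a nuclear receptor, is not in this list, and its regions are in neither count. It was the nearest gene of 5 losses from -24.7 to -30.2 points over 697 kb, with 1 of them inside the gene. The share of gains in the list thus depends on which genes the list holds.

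Tumor suppressor and Wnt, Hedgehog and Ras signalling genes had 6 gains and 20 losses (23.1% gains), near the 25.2% gains of all 290 regions. By the gene overlapped they had 8 gains and 18 losses (30.8% gains). Tcf7l2, the transcription factor at the end of the Wnt pathway, gained 34.1, 22.2 and 34.0 points in introns and had a loss of -27.4 points in another. Lrp5, a Wnt co-receptor, gained 34.3 points in a coding exon, and a second region inside it, listed under Ppp6r3, gained 26.8 points. In Sufu, an inhibitor of Hedgehog signalling, the difference was -57.3 points at 4 of 4 cytosines in an intron, 18333 bp upstream of Trim8, the gene named by the table, with a further loss of -27.0 points beside it. Trim8, a ubiquitin ligase gene, itself carried a loss of -22.7 points in an intron, and 2 gains of 22.4 and 23.4 points lay beyond it.

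Rasgrp2 encodes a guanine nucleotide exchange factor that activates the Ras-like protein Rap1. It carried 3 losses within 5.94 kb, of -55.3, -32.3 and -48.8 points. Their regions overlapped coding exons and lay between 2454 and 8265 bp downstream of its TSS. Of the 24 cytosines in the sequences printed for it, 22 were called DMCs. Dusp5, a phosphatase that inactivates the kinase ERK, had losses of -45.4 points in an intron, -22.9 points in a coding exon and -38.5 points upstream. Kank1, a regulator of the actin skeleton, was the nearest gene of 6 losses from -20.1 to -28.5 points, of which 3 lay in the neighbouring gene Dock8. Gna14 had gains of 21.6 and 24.8 points and losses of -30.8 and -21.5 points within its gene body.

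Neural adhesion, guidance and synaptic genes had 6 gains and 22 losses (21.4% gains), near the 25.2% gains of all 290 regions. By the gene overlapped they had 8 gains and 36 losses (18.2% gains). Ablim1, an actin-binding LIM protein, had the largest losses among them, with -48.3 points at 8 of 8 cytosines and -41.1 points. Sorcs1, a sorting receptor, was nearest to 6 losses from -22.4 to -28.3 points, of which 3 lay inside it. Losses also lay in Nrxn2, a synaptic adhesion protein (-27.4 points), in the ion channel genes Trpm3 (-32.0 points) and Trpm6 (-26.9 and -30.3 points), and in Apba1, an adaptor of synaptic vesicles. The gains were at Dagla, which makes an endocannabinoid (20.7 and 21.9 points), Cnnm2, a magnesium transport protein (26.0 and 22.0 points), Gfra1, a GDNF receptor (20.96 points), and upstream of Syvn1, a ubiquitin ligase of the endoplasmic reticulum (31.6 points). Olfactory receptor genes were nearest to 8 regions, all losses from -21.4 to -36.1 points and all intergenic. Few intergenic regions of the chromosome were gains in any case (9 of 87, 10.3%). Their cluster of 91 genes has 9.32 predicted fragments per 100 kb, below the 18.4 of the chromosome.

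Over all 9 lists together, 31 of 117 regions were gains (26.5%), close to the 25.2% of the whole chromosome (regions of Tcf7l2 and Dagla stand in more than 1 list and were counted once). Some genes carried several losses without a gain. Cfap58, which encodes a protein of cilia and flagella, was nearest to 7 losses from -21.4 to -31.7 points, with 4 of them inside it. Prkg1, a cGMP-dependent kinase, held 6 losses, Crtac1, an extracellular matrix protein, held 6 and Pip5k1b, a phosphoinositide kinase, held 5. Fam189a2 was nearest to 4 losses, with 1 of them inside it.

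Among the largest gains outside the lists, the region downstream of Nolc1, a nucleolar protein gene, reached 53.4 points at 8 of 8 cytosines. A region overlapping a coding exon of Pde6c, a phosphodiesterase of cone photoreceptors, reached 51.0 points at 4 of 4. An intron of Dclre1a, a gene of DNA crosslink repair, reached 45.3 points at 4 of 4 cytosines. Among the largest losses, an intronic CpG island of Dnmbp, an exchange factor for Cdc42, showed -55.3 points with 14 of 15 cytosines called. Losses of -46.6 points in Ccdc88b, -45.6 points in Ptar1 and -42.3 points near Smndc1, a splicing factor gene, followed. In 23 of the 290 regions every measured cytosine was a DMC, and 11 of these were gains and 12 losses. On the other autosomes 1007 of 13450 regions were of this kind, with 256 gains and 751 losses.

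Within 2 kb of a TSS, where methylation is most often linked to transcription, 7 regions were gains and 17 were losses. The gains included those at Gpr137 (34.0 points, in a coding exon), Gna14, the region listed for Lipo1, Blnk, Ldb1 and Elovl3. The losses ranged from -21.6 to -43.3 points, and 1 of the 17 was of at least 30 points. That loss lay in a coding exon of Scd2, and the TSS near it, 1670 bp away, is that of Mir5114.

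Markers of other cell types that liver tissue can hold were looked up on the chromosome. Of 8 leukocyte markers, 2 were the nearest gene of a region: Blnk, the B-cell linker, gained 31.6 points 1349 bp upstream of its TSS, and Cd6, a surface protein of T cells, had a loss of -22.0 points in a coding exon. In the wider list of leukocyte and interferon genes 2 regions were gains and 3 were losses: besides Blnk and Cd6, Ltbp3, which binds latent TGF-beta, gained 24.2 points in a coding exon, and Entpd1, an ectonucleotidase of leukocytes, had losses of -23.8 and -20.8 points in introns. Acta2, the actin of stellate cells and smooth muscle, had a loss of -25.3 points in a coding exon. Of 9 hepatocyte markers, 3 had regions. These were 1 inside Pcx and, by nearest TSS alone, 2 listed for Cyp2c70 and 1 for Abcc2, and all 4 were gains, on a chromosome where 25.2% of regions were. Liver enzymes outside the marker list, such as Scd1 and Got1, carried losses, as given above. Expression was not analysed here, and the part of the cell mix in these differences was not tested.

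The gene named by the nearest TSS was often not the gene a region lay in. Of the 203 regions inside a gene, 120 lay in the listed gene and 83 in another one. In 24 regions the nearest listed TSS was that of 1 of 12 microRNA genes, and 23 of those regions lay inside another gene.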

How the data were processed

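DNA methylation was measured by RRBS in 3 normal livers and 3 Ha-ras-mutated liver tumors. Per the methods, the authors trimmed reads with Trim Galore, aligned them as pairs to mm10 with Bismark, counted C and T reads at CpG cytosines of each strand with methylKit (coverage of at least 10 reads), and called DMCs by logistic regression with a difference of at least 25 points. Regions were built with eDMR and joined to the nearest RefSeq TSS with bedtools 2.25.0, the version in the submitters' processing notes. The other versions were not stated. The authors' deposited table gives 1 mean difference per region as a percent methylation difference (percentage points), the numbers of measured cytosines and DMCs, the span and the TSS distance. These are the authors' own pooled comparison and its sole measurements, so they were described, not tested. Columns of other samples left unused numbered 0. Read depth per region is not known here beyond the minimum.

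Deposited starts counted from 0 (all 290 lay in a CpG after adding 1), so 1 was added. Regions were annotated on GRCm38 with its RefSeq annotation. A region was called coding exon if any of its bases overlapped coding sequence. A region inside a gene that met no exon of an annotated transcript was called intron, also in pseudogenes without an annotated transcript. For CpG islands, 200 bp windows needed 50% GC or more and an observed to expected CpG ratio of 0.6 or more, and merged islands a length of 300 bp or more. TSS distance was taken to the near end of a region, and comparison at equal distance was by direct standardisation over 5 classes, tested on simulated data. Fragment rates used distance to starts of RefSeq transcripts in the annotation. Python 3.11.15, pandas 2.3.3, numpy 2.4.6 and scipy 1.17.1 were used. Named regions were the 10 largest gains and losses with at least 3 DMCs, regions within 2 kb of a TSS of at least 30 points, genes nearest to at least 4 regions, list genes of at least 25 points and all Cyp2c regions. Other regions named (smaller changes, the regions with most cytosines, mixed pairs, markers, and genes by overlap) were added after their values were seen. The members and the 9 gene lists were chosen with earlier results of these data known. Some regions and 1 sequence are not reported here.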

Additional observations from a re-analysis of the deposited data

How the results depend on the processing

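The share of gains on chromosome 19 (25.2%) was 47.1% among regions of at least 30 points, 43.5% at 40, 57.1% at 50, 32.0% with at least 5 cytosines, 45.1% with at least 10 and 36.5% with at least 3 DMCs, and stayed within its interval under the other 4 alternatives. The difference at equal TSS distance (7.55 points) was 17.3 at 30 points, and reversed to -5.70 at 40 and -9.04 at 50 points, where 23 and 7 regions remained. It ranged from 4.66 (without window 10) to 9.17 points over the windows left out in turn. Windows with a majority of gains numbered 1 of 12 at 2 Mb, and 2 of 2 at 30 points. Neighbours of the same direction were 6 of 6 pairs within 2 kb, 100 of 118 within 50 kb and 2 of 2 at 30 points. Gains in the gene lists were 10 of 28 at 30 points. The causes were not tested. No paired analysis was possible because the table holds no value per sample, and for the same reason no replicate could be left out. The table holds no region under 20 points, so nothing is known here of smaller changes, and read depth per region cannot be weighed.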
